A study of Mus musculus with 36 samples.

Results

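The genes described here are 37 mouse DNA repair genes, chosen by name for their place in a repair pathway. Earlier results of these data were known when they were chosen. The array carried 89 of its 45281 probes for them. All 37 had at least 1 probe, among 19057 genes with a probe. They fall into 7 classes: 2 mismatch repair genes, 9 genes of break sensing and signalling, 4 of homologous recombination, 5 of end joining, 3 of the Fanconi anaemia pathway, 8 of base excision and single-strand break repair and 6 of nucleotide excision repair.

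Lewis lung carcinoma (LLC), a transplantable mouse lung tumour line, was grown in male mice. RNA was taken from 10 tumours of young unirradiated hosts, 8 tumours of young hosts irradiated with iron ions, 7 tumours of middle-aged unirradiated hosts and 5 tumours of middle-aged irradiated hosts. Irradiated hosts received 5 exposures of 0.2 Gy of iron ions. The other 6 arrays carried RNA of cultured LLC cells, 3 in each of 2 batches, deposited as a technical control of the chips with no host and no treatment. The study took the young unirradiated hosts as its reference and asked how host age and irradiation changed the transcripts of the tumour. Host age is given only in words, and neither the mouse strain nor the time between exposure and tumour collection is given in the sources used here. The tumours are called biological replicates by the series text. No label ties a tumour to its own mouse, so p-values measure only the spread between these samples.

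Cells repair DNA by routes that differ in the lesion they read. Mismatch repair corrects copying errors behind the replication fork, base excision repair removes single damaged bases, nucleotide excision repair cuts out bulky lesions, and the Fanconi pathway unhooks crosslinks between strands. Double-strand breaks, the lesion for which ionising particles are best known, are sensed by the MRN complex and the ATM and ATR kinases and are then rejoined by end joining or copied from the sister chromatid by homologous recombination. Many genes of replication-linked repair are transcribed mostly in dividing cells.

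Values are background-corrected, quantile-normalised log2 intensities, so a difference of 1 is a factor of 2 in brightness. The brightest probe of a gene over the tumours stood for it. A gene was tested between tumour groups where its probe was detected (detection p under 0.05) on at least 5 of 30 tumours, and between tumours and cells where it was detected on at least 5 of 36 arrays. By these filters 34 of the 37 genes were tested in both kinds of comparison. The other 3 were not detected on any array: Nbn, the partner of MRE11 and RAD50 in MRN, with 3 probes, Atr, a kinase that answers stalled replication, with 1 probe, and Xrcc5, which encodes Ku80, with 1 probe. A probe not above background gives no level for its gene. Xrcc6, which encodes the Ku70 partner of Ku80, and Mre11a and Rad50, the partners of NBN, were detected on all 36 arrays. A gene was called where limma's moderated test gave a Benjamini-Hochberg adjusted p under 0.05 over all genes tested.

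Arrays differed in brightness. Detected probes numbered 11860 and 14828 on replicates 6 and 8 of the young irradiated tumours, the dim arrays below, and from 17329 to 19843 on the other tumours. The 6 cell arrays had 16420 to 18546. The sources used here do not tie tumours to chips, so no comparison within chips was made. In these bulk samples, fewer cells of a type and less RNA per cell cannot be told apart. The mean of 8 skeletal muscle genes ran from 4.82 to 11.53 among tumours and was over 8 in 6 of them. Of 7 epithelial and lung genes fixed for the tumour line, Vim, Krt8 and Krt18 were detected on every array, whereas Epcam and Sftpc were detected on none and Nkx2-1 on 1 tumour.

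Against the cultured LLC cells, tumours held less transcript of 9 repair genes and more of 1. Base excision held 4 of the 9 lower genes (Apex1, Ung, Lig1 and Parp1) and break sensing 2 (H2ax and Mre11a), with Msh6 of mismatch repair, Fancd2 of the Fanconi pathway and Brca1 of homologous recombination making up the rest. The higher gene was Fanca. No gene of end joining or nucleotide excision was called. Together 10 of 34 were called, against 20.7% of all 11105 genes tested (11.7% called higher and 9.01% called lower). Of the 34, 25 lay below 0, with a median difference of -0.36. Of all genes tested, 54.5% lay below 0, with a median of -0.07.

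**Figure D1:**
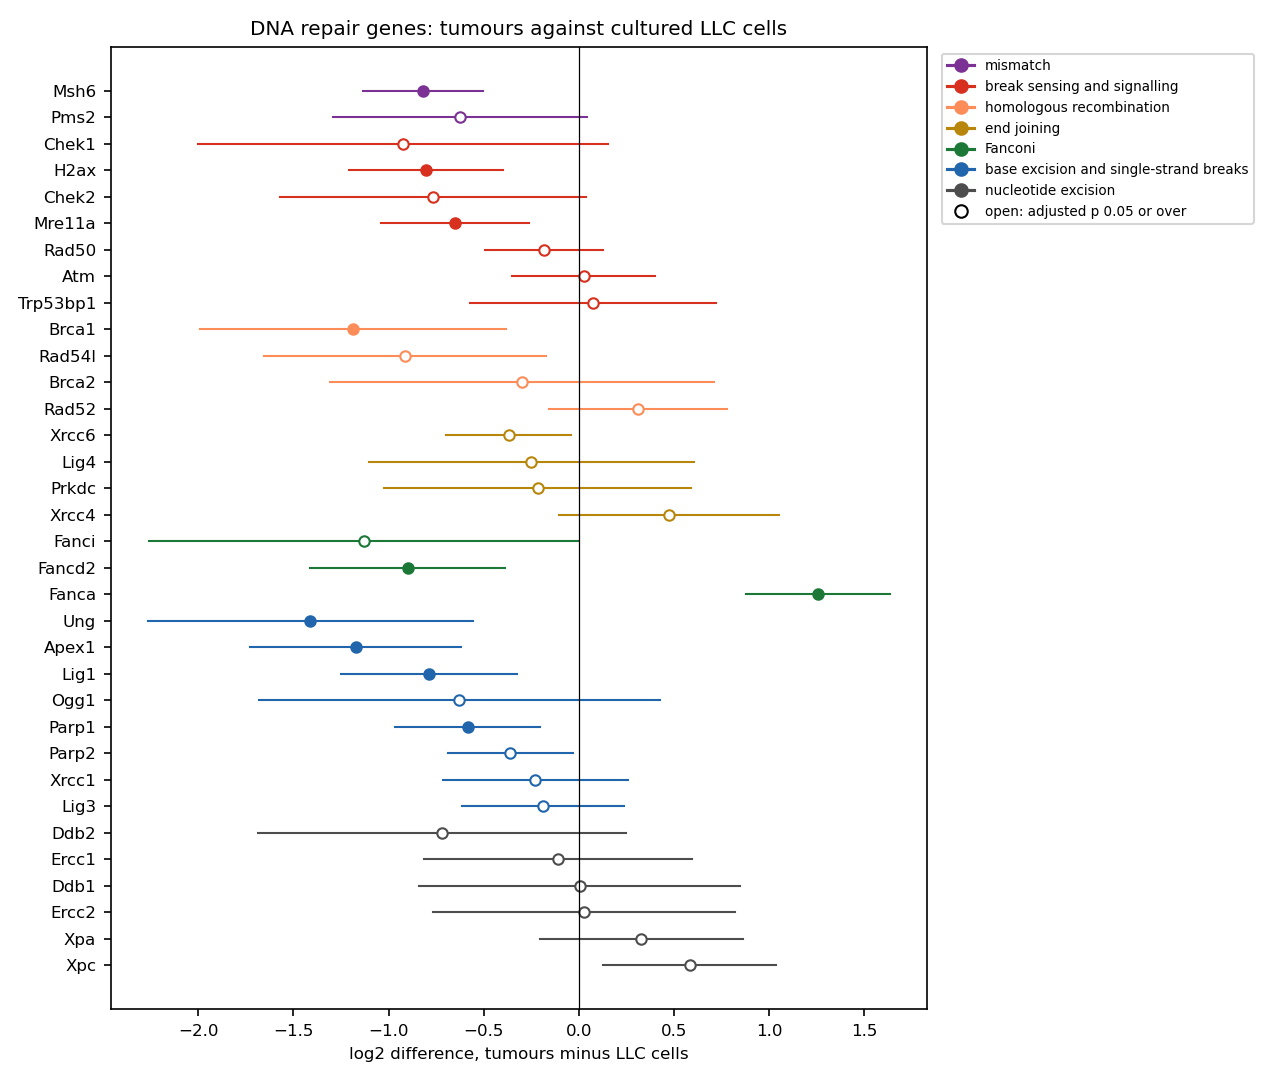
The log2 difference between tumours and LLC cells is plotted for 34 repair genes, grouped by class, with 95% confidence intervals from limma. Filled points are the 10 genes with an adjusted p under 0.05. Fanca stands alone among them to the right of 0, and all 8 base excision genes lie to the left of it.

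Msh6 encodes a protein that recognises base mismatches. Its log2 intensity ran from 11.50 to 12.15 over 30 tumours with a median of 11.88, and from 12.41 to 12.98 over the 6 cell arrays with a median of 12.66. The brightest tumour thus lay below the dimmest cell array. The difference was -0.82 (SE 0.15, limma adjusted p = 0.000225), a 1.76-fold lower level in tumours. A second Msh6 probe gave -0.84. Pms2, an endonuclease and the other mismatch gene, ran from 7.36 to 8.79 in tumours (median 7.92) and from 8.45 to 8.81 in cells (median 8.59). These ranges overlapped and Pms2 was not called (-0.62, SE 0.33, adjusted p = 0.182).

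Among the genes that sense breaks, H2ax encodes the histone variant that is phosphorylated beside a break. It lay between 11.00 and 11.72 in tumours (median 11.35) and between 11.91 and 12.35 in cells (median 12.16), with no overlap. Its difference was -0.80 (SE 0.20, adjusted p = 0.00380). Mre11a, the nuclease of MRN, lay between 9.85 and 10.41 in tumours (median 10.17) and between 10.74 and 10.88 in cells (median 10.77). It too was lower in every tumour than in any cell array, by -0.65 (SE 0.19, adjusted p = 0.0135), and its 2 other detected probes gave -0.91 and -1.23. Rad50, its partner in the complex, did not pass the test at -0.18 (95% interval -0.49 to 0.12). The kinase gene Atm differed by 0.03 (-0.35 to 0.40) and Trp53bp1, whose product binds chromatin at breaks and favours end joining, by 0.07 (-0.57 to 0.72).

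The checkpoint kinases were not called on their brightest probes, Chek2 at -0.77 (adjusted p = 0.174) and Chek1 at -0.93 (adjusted p = 0.229). Chek1 was detected on 16 of 30 tumours and all 6 cell arrays. A second Chek2 probe, detected on 28 tumours and 6 cell arrays, gave -1.35 (adjusted p = 0.00204 with every probe tested). The call on Chek2 thus turned on the probe.

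Of the homologous recombination genes, Brca1, which directs the resection of broken ends, was called. It lay between 4.85 and 6.88 in tumours (median 6.21) and between 7.00 and 7.79 in cells (median 7.37), a difference of -1.19 (SE 0.39, adjusted p = 0.0299). It is the dimmest of the called genes, detected on 28 of 30 tumours. Its probe is annotated to a cDNA clone, and the probe of its RefSeq transcript, detected on 3 tumours and 4 cell arrays, gave -0.80 (adjusted p = 0.0840). Rad54l, a motor protein of strand exchange, ran from 8.22 to 9.71 in tumours (median 8.97) and from 9.72 to 9.98 in cells (median 9.80). Its groups did not overlap, yet it missed the threshold at -0.92 (SE 0.36, adjusted p = 0.0713). Brca2, a mediator of strand exchange, gave -0.30 (-1.31 to 0.71) and Rad52, an annealing protein, 0.31 (-0.15 to 0.78).

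End joining had 4 tested genes and none was called. Xrcc6, which binds broken ends, ran from 11.68 to 12.29 in tumours (median 11.93) and from 12.08 to 12.44 in cells (median 12.32). The ranges overlapped and the difference of -0.37 (SE 0.16) was not called (adjusted p = 0.104), although another of its probes gave -0.95 (adjusted p = 0.00419 with every probe tested) and a dimmer one -1.44. Lig4, the ligase of the pathway, gave -0.25 (-1.10 to 0.61). Prkdc, the DNA-dependent kinase, gave -0.22 (-1.02 to 0.59), with a second probe at -0.24. Xrcc4, the scaffold of LIG4, was detected on 13 of 30 tumours and on no cell array. It thus passed the filter only through the tumours, and its value of 0.47 (adjusted p = 0.254) is set against background and gives no difference in level. Its probe is annotated to a cDNA clone, and the probe of its RefSeq transcript was not detected on any array.

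The 3 Fanconi genes split. Fanca, a member of the core complex that ubiquitinates FANCD2 and FANCI, lay between 9.33 and 10.07 in tumours (median 9.68) and between 8.25 and 8.59 in cells (median 8.44). Every tumour lay above every cell array, by 1.26 on average (SE 0.18, adjusted p = 7.71e-06), a 2.39-fold higher level. That probe is annotated to a cDNA clone, however, and the only other Fanca probe, of the RefSeq transcript, was not detected on any of the 36 arrays. The signal therefore belongs to a sequence assigned to Fanca and was not seen with the RefSeq probe. Brca1, Atr and Xrcc4 also had a brightest probe from another cDNA sequence, Atm had one with no accession, and the other 32 genes had one of a RefSeq transcript.

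Fancd2 and Fanci encode the pair of proteins that clamp onto crosslinked DNA. Fancd2 lay between 7.64 and 8.79 in tumours (median 8.07) and between 8.83 and 9.13 in cells (median 8.999), just without overlap. It was lower by -0.90 (SE 0.25, adjusted p = 0.00981), and its second probe gave -1.09. Fanci ran from 4.75 to 7.37 in tumours (median 6.73) and from 7.39 to 7.96 in cells (median 7.76). Its groups did not overlap either, but the wide tumour spread left it uncalled at -1.13 (SE 0.55, adjusted p = 0.150). Fanci was detected on 28 of 30 tumours, and on 6 of 8 in the young irradiated group, where its SD was 0.92. It was called without the dim arrays, where 25.9% of all genes were called. Array quality weights, with 30.5% of all genes called, also gave a call. In all, 11 of the 34 repair genes lay lower in every tumour than in any cell array and 1 lay higher, where 8.94% and 10.7% of all genes tested did so.

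Base excision held the most called genes by number, but it is also among the larger classes. Its called share was 50%, as for mismatch repair, and the Fanconi share was 66.7%, in both directions. All 8 of its members lay below 0, with a median of -0.61. The median was -0.72 for mismatch repair, -0.65 for break sensing, -0.90 for Fanconi and -0.61 for homologous recombination. Ung, the glycosylase that removes uracil, lay between 7.74 and 9.63 in tumours (median 8.88) and between 10.08 and 10.57 in cells (median 10.29). It had the largest difference of the 10 called genes, -1.41 (SE 0.42, adjusted p = 0.0148). A second probe, detected on 14 tumours and 6 cell arrays, gave -1.68. Another gave -0.64, but it was detected on 2 tumours and 4 cell arrays and passed the filter only through the cells. Apex1, the endonuclease that cuts at the site left without a base, lay between 8.18 and 9.11 in tumours (median 8.64) and between 9.64 and 10.04 in cells (median 9.83). That was a gap of -1.17 (SE 0.27, adjusted p = 0.00219), or 2.26-fold.

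Of the 6 other base excision genes 2 were called. Lig1, the ligase that seals replicated DNA, lay between 9.95 and 10.93 in tumours (median 10.53) and between 11.10 and 11.67 in cells (median 11.31). Its difference was -0.79 (SE 0.23, adjusted p = 0.0118), and 3 further probes gave -1.34, -0.68 and -0.31. Parp1, which senses single-strand breaks, lay between 11.10 and 11.84 in tumours (median 11.52) and between 11.99 and 12.15 in cells (median 12.07). Its difference of -0.58 (SE 0.19, adjusted p = 0.0238) was the smallest of the called genes, with -1.35 and -0.52 from its other probes. Not called were its relative Parp2 at -0.36 (adjusted p = 0.113), the oxidised-guanine glycosylase Ogg1 at -0.63, the scaffold Xrcc1 at -0.23 and its ligase partner Lig3 at -0.19.

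**Figure D2:**
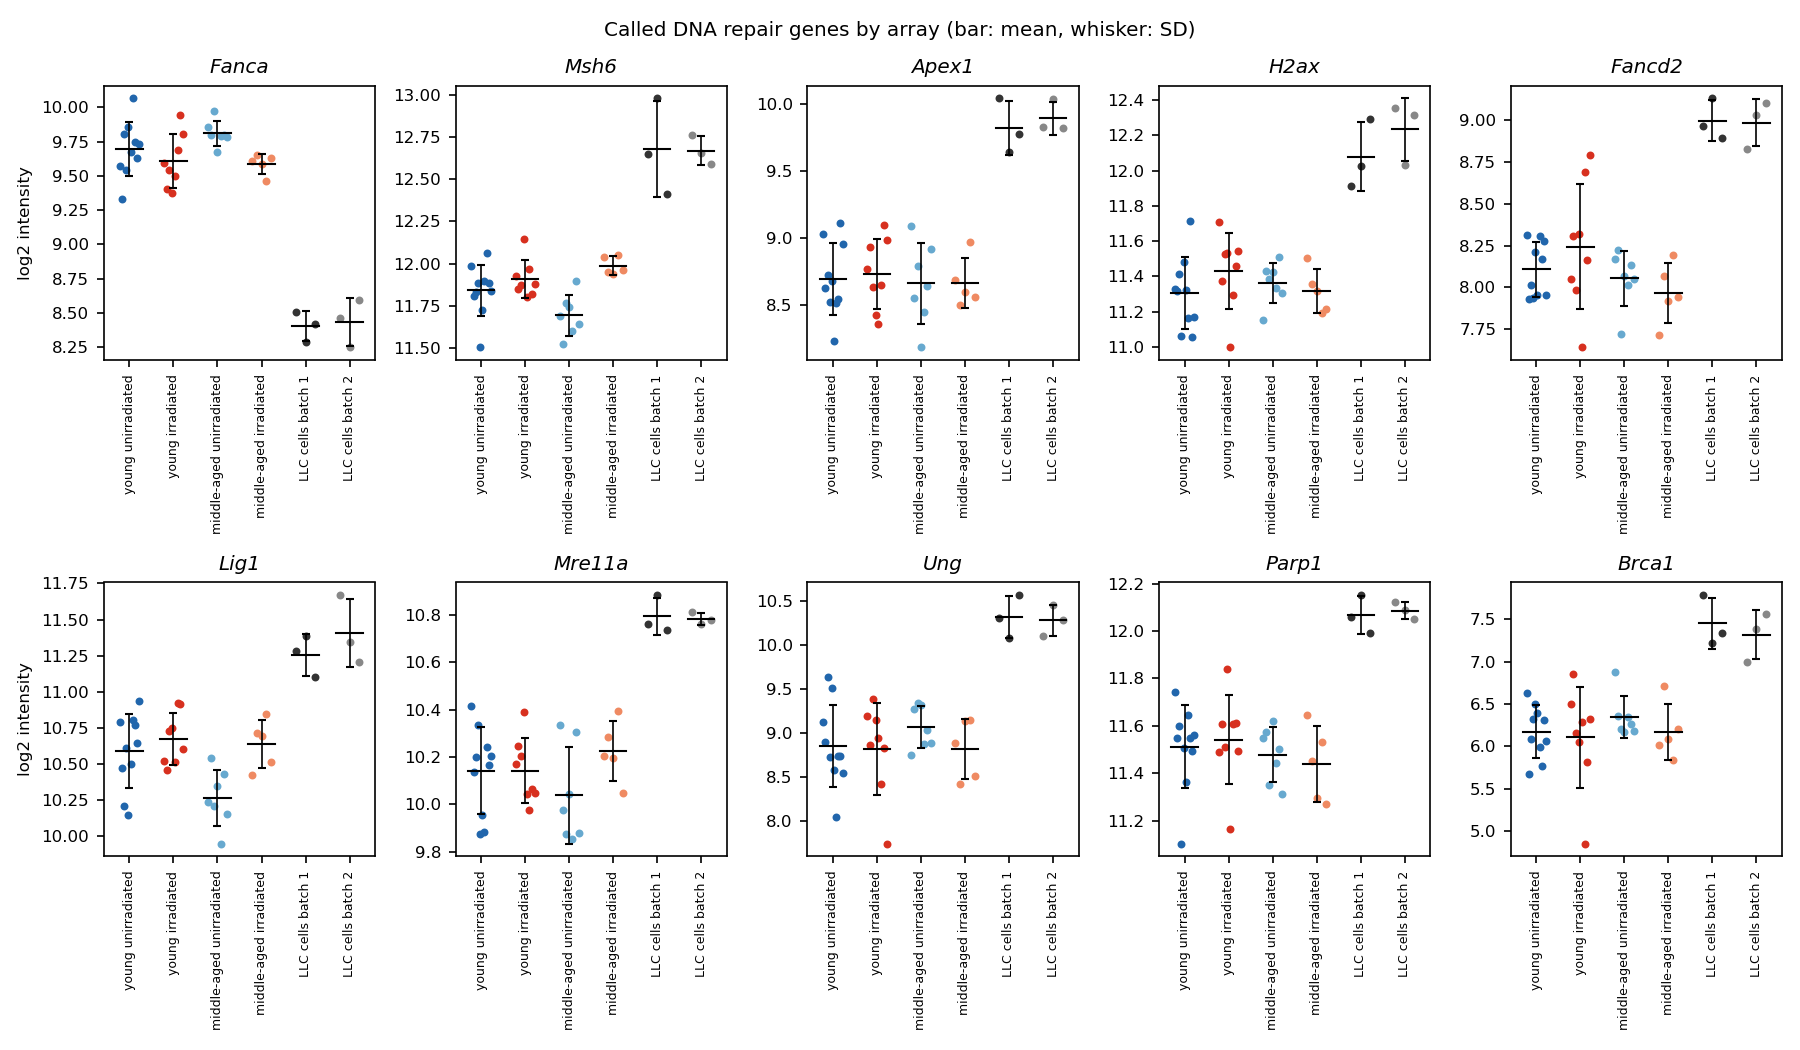
Each panel shows 1 of the 10 called genes, with a point per array in log2 intensity for the 4 tumour groups and the 2 batches of LLC cells; bars are group means and whiskers SDs. Axes do not start at 0 and differ between panels. In every panel the 6 cell arrays sit apart from all 30 tumours, above them for 9 genes and below them for Fanca.

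Nucleotide excision stood nearest to no difference, with 0 of 6 genes called and a median of 0.01. Xpc, the damage sensor of this pathway, came closest, with 8.30 to 9.10 in tumours (median 8.71) against 7.80 to 8.39 in cells (median 8.16). It lay higher by 0.58 (SE 0.22) and missed the threshold (adjusted p = 0.0613). Xpa, which verifies the lesion, gave 0.33 (-0.21 to 0.86), the helicase gene Ercc2 0.03 (-0.77 to 0.82) and the nuclease subunit gene Ercc1 -0.11 (-0.81 to 0.59). Ddb1 and Ddb2, the subunits of a ubiquitin ligase that reads ultraviolet damage, gave 0.00 (-0.84 to 0.85) and -0.72 (-1.69 to 0.25). Differences between the classes were not tested.

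Several probes of a gene mostly pointed one way. Of 16 genes with more than 1 probe detected on at least 5 arrays, all probes lay below 0 in 12 and above 0 in 1 (Trp53bp1). Among the 12, Brca1, Brca2 and Ung each include a probe that passed the filter only through the cells, where it was brighter. Those probes were detected on 3 tumours and 4 cell arrays for Brca1, 2 and 5 for Brca2, and 2 and 4 for Ung. Their place below 0 is no support, and Brca1 is among the 16 only through such a probe. Probes of Atm, Lig3 and Parp2 fell on both sides. Of the 89 probes 63 were detected on at least 5 arrays and 17 on none. With every probe tested, 13 of 34 genes had at least 1 called probe, and 19.6% of all probes tested were called. These measures are unlike, one per gene and one per probe. A gene with several probes had several chances of a call, so the count shows no excess over that share. The additions were Chek2, Xrcc6 and Brca2. The called Brca2 probe (-0.70, adjusted p = 0.0493) was detected on 2 tumours and 5 cell arrays and passed the filter only through the cells, and its 2 other probes, detected on 29 tumours each, gave -0.30 and -0.40 without a call.

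**Figure D3:**
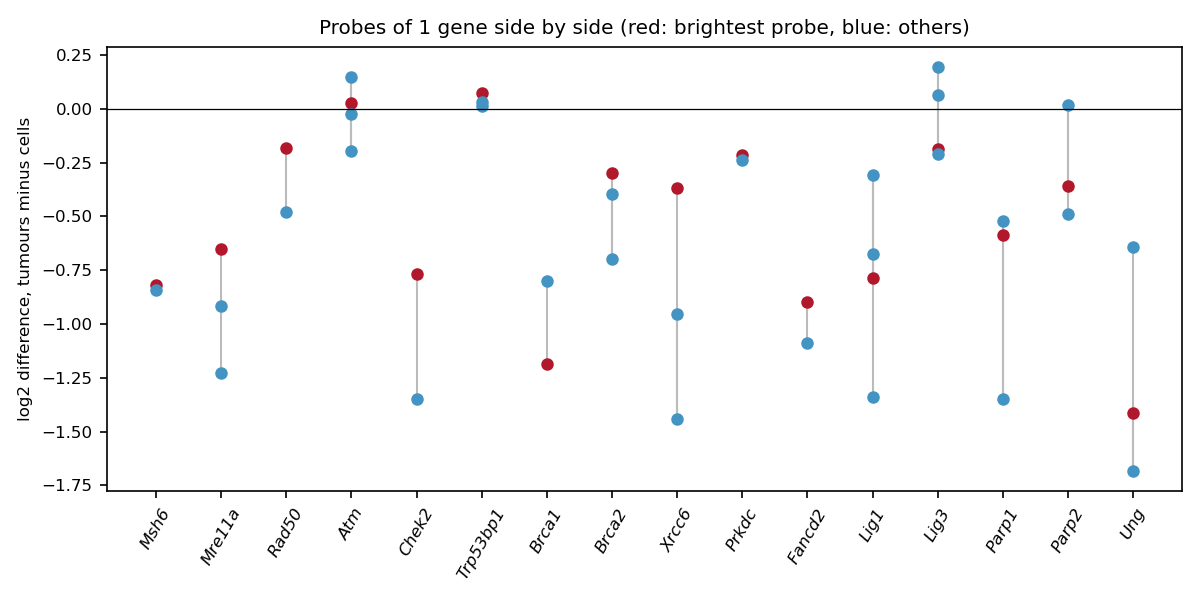
The log2 difference between tumours and LLC cells is shown for each detected probe of the 16 repair genes with several, the brightest in red. All probes lie below 0 for 12 of the genes, and within 1 gene they range widely, from -0.31 to -1.34 for Lig1 and from -0.37 to -1.44 for Xrcc6. For Brca1, Brca2 and Ung, a probe among these passed the filter only through the cells.

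Other repair genes came from a list of 70 drawn up by pathway. Of the 61 with a probe 53 were tested, 8 were called lower and 1 higher, with a median of -0.50. The called share was 17% (1.89% higher and 15.1% lower), against 20.7% over all genes tested (11.7% higher and 9.01% lower). Exo1 is counted among the 8 although it could enter only through the cells. Exo1, a nuclease of mismatch and break repair, had the smallest p, but it was detected on 2 of 30 tumours and 6 of 6 cell arrays and passed the filter only through the cells. Its cells ran from 7.03 to 7.46 and its tumour signal was mostly not above background, so no difference is given. The lower genes of smallest p after it were Bard1, the partner of BRCA1, at -1.44 (adjusted p = 0.000342), Rpa1, the large subunit of the protein that coats single-stranded DNA, at -0.69 (adjusted p = 0.00331), and Polq, the polymerase of microhomology joining, at -1.44 (adjusted p = 0.00595). Bard1 was detected on 8 tumours and 6 cell arrays, and Polq on 22 and 6. The gene called higher, named after its value was seen, was the helicase gene Wrn at 0.65 (adjusted p = 0.0286). No probe was assigned to 9 of the list.

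Markers of other cells and of division also differed between tumours and LLC cells. Of 16 tested cell cycle genes, none of them a repair gene of the list above, 13 were lower in tumours and 0 higher, with a median of -1.23. The mean of the cell cycle list ran from 9.06 to 9.67 in tumours and from 10.43 to 10.49 in cells. All 9 tested macrophage genes were higher, with a median of 7.07. Their mean ran from 10.24 to 11.90 in tumours and from 4.87 to 5.14 in cells, where 8 of the 9 were undetected on all arrays. Fibroblast genes were higher for 5 of 7, endothelial genes for 4 of 6, neutrophil genes for 4 of 6, red cell genes for 1 of 4, muscle genes for 0 of 8 and T and NK cell genes for 0 of 4. Undetected on all cell arrays were 3 of the 7 fibroblast, 4 of the 6 endothelial, 4 of the 6 neutrophil, 3 of the 4 red cell and all 8 muscle genes. Such genes, like the 8 macrophage genes, passed the filter only through the tumours, and their differences are from background. The part of cell mixture and of division in the repair gene differences was not tested.

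The tumour-to-cell calls depend on how arrays are scaled and on the spread allowed for the cells. The 6 cell arrays were averaged to 1 sample, so that the spread between cultures is assumed equal to that between tumours. With arrays scaled by their median in place of quantiles, none of the 10 genes was called, while the median of the 34 moved to -0.66 against -0.23 for all genes. Without the dim arrays 13 genes were called (25.9% of all genes tested), and without the 6 tumours of high muscle marker mean 9 (19.3%), Brca1 dropping out (adjusted p = 0.0537). With the authors' normalised values Brca1 also lost its call (-0.46, adjusted p = 0.0857) and Xpc gained one. Set against the cells alone, the young irradiated tumours, which include the dim arrays, gave 1 call (Fanca, with 7.29% of all genes called) and the young unirradiated 8 (16.2%). The middle-aged groups gave 14 each, the unirradiated with 23.7% of all genes called and the irradiated with 31.1%.

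Within tumours, the spread of repair genes around their group means was set against the cell cycle list. Over 30 tumours, each value taken relative to its group's mean, Parp1 rose with the cell cycle mean (Pearson r = 0.61, Spearman rho = 0.51), as did Xrcc6 (r = 0.59, rho = 0.48) and Rad54l (r = 0.58, rho = 0.55), and Xpa fell as it rose (r = -0.63, rho = -0.50). Two-sided permutation within groups with 100000 draws, adjusted over 34 genes, gave p = 0.0212 for Parp1 and 0.0185 for the other 3 by Pearson's r. By Spearman's rho 0 of 34 passed, with adjusted p from 0.0901 to 0.0997 for these 4. Without the 2 tumours farthest from the median cell cycle mean, r was 0.52 for Parp1, 0.49 for Xrcc6, 0.45 for Rad54l and -0.45 for Xpa. Of the 34 genes 22 had r above 0, with a median of 0.11. The adjusted call thus depended on which correlation was used. All values come from the same 30 arrays.

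**Figure D4:**
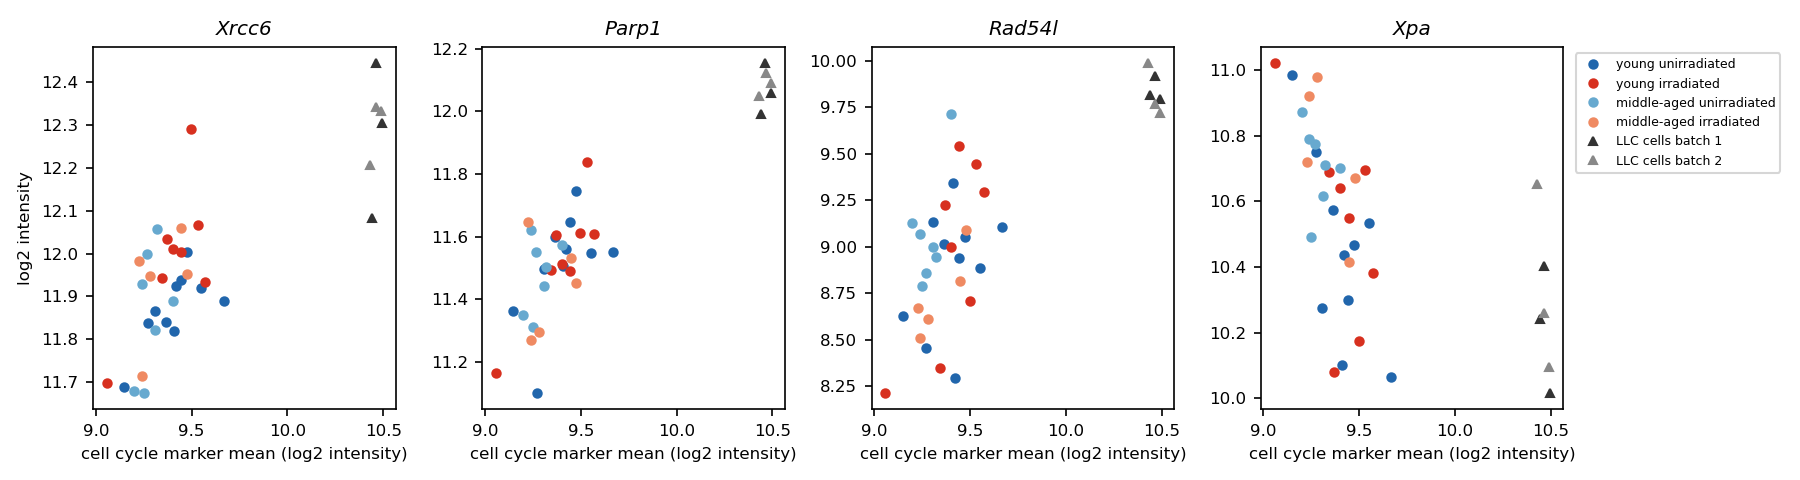
Log2 intensity of Xrcc6, Parp1, Rad54l and Xpa is plotted against the mean log2 intensity of the cell cycle markers, a point per array, tumours as circles and LLC cells as triangles. Tumours with a higher cell cycle mean tend to be higher for the first 3 genes and lower for Xpa, and the cell arrays sit apart at 10.43 to 10.49.

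Promoter sequences are shown for Msh6 and Lig1, the genes lower in tumours that had a match to the E2F motif defined below. Xrcc6 is shown as the only gene with a match among Parp1, Xrcc6, Rad54l and Xpa, set against the cell cycle mean above. Fanca is shown as the gene that was higher. RefSeq's GRCm38.p6 table, with the bases from 250 before to 50 after a gene's start, had an entry for 30 of the 37 genes and none used here for Ddb2, Fancd2, H2ax, Nbn, Prkdc, Rad50 and Xpc. Capitals mark a match, on either strand, to an E2F motif, searched as TTTCCCGC, TTTGGCGC, TTTCGCGC or TTTGCCGC. Such a match lay in 5 of 30 repair genes (16.7%), Msh6, Lig1, Xrcc6, Brca2 and Chek2, and in 2.60% of the 27025 genes of the table. It was present in 2 of the 7 lower genes with an entry and in 3 of the 20 not called. The other lower genes with an entry, Apex1, Ung, Parp1, Mre11a and Brca1, had no match, and neither had Rad54l and Xpa. The CCAAT box, searched as CCAAT on both strands, lay in 15 of 30 (41.1% of all genes), and the cell cycle element TTTGAA in 0 of 30 (20.2% of all genes). A match is a string of letters and no evidence of binding. Shown 5′ to 3′ along the gene are Msh6 at chr17:87974800-87975099 (plus strand), Lig1 at chr7:13278576-13278875 (plus strand, 1 of 3 annotated starts, the only one with a match), Xrcc6 at chr15:82016119-82016418 (plus strand) and Fanca at chr8:123318527-123318826 (minus strand, no match).
Msh6: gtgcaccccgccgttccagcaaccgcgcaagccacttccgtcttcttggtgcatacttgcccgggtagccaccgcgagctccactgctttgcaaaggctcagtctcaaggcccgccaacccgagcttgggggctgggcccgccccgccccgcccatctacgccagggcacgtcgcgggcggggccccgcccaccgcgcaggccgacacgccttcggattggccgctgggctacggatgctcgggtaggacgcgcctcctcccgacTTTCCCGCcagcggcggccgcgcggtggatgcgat
Lig1: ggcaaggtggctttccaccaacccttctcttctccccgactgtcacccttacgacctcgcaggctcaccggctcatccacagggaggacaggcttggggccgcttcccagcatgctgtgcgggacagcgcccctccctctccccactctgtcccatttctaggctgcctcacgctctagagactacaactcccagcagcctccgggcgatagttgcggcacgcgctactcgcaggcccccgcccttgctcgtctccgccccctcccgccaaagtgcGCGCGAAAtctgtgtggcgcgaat
Xrcc6: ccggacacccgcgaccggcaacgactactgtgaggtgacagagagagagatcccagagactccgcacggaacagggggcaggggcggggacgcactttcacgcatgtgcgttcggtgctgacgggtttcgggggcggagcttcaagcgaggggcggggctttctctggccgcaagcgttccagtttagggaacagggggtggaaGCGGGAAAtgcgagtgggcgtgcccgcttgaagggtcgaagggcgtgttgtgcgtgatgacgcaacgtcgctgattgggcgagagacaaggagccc
Fanca: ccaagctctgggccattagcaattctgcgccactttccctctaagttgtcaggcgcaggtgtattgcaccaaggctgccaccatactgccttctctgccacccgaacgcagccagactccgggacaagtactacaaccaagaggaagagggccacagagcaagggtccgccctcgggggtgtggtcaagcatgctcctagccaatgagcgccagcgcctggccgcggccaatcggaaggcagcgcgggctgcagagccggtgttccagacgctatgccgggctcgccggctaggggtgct

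Between the 4 tumour groups no repair gene was called. The comparisons share samples: each irradiation effect and each age effect uses groups that another one uses. Among 10907 genes tested, 0% were called for age in unirradiated hosts, 0.00917% for age in irradiated hosts, 0% for irradiation in young hosts, 0% for irradiation in middle-aged hosts and 0.0183% for the middle-aged irradiated group against the young unirradiated reference. The difference between the irradiation effects at the 2 ages gave 0%. The largest difference of a repair gene in the 4 pairwise comparisons of age and irradiation was 0.53, for Ercc2 with age. Counts at an unadjusted p under 0.05 are therefore given beside those over all genes.

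For age in unirradiated hosts, 6 of 34 repair genes had an unadjusted p under 0.05, 2 of them higher and 4 lower in the middle-aged group, against 13.8% of all genes tested. Parp2 ran from 10.45 to 10.82 in young tumours (median 10.61) and from 10.22 to 10.52 in middle-aged ones (median 10.42), with a slight overlap. Its difference was -0.25 (SE 0.08, p = 0.00302, limma adjusted p = 0.197), while its 2 other detected probes gave -0.06 and 0.13. Lig1 was next in base excision, from 10.15 to 10.93 (median 10.63) against 9.95 to 10.54 (median 10.24), at -0.32 (SE 0.11, adjusted p = 0.224), with -0.31, -0.30 and -0.07 from its other probes. Ercc2 went the other way, from 6.52 to 7.99 in young tumours (median 7.32) and from 7.73 to 8.03 in middle-aged ones (median 7.85). It differed by 0.53 (SE 0.19, p = 0.00868, adjusted p = 0.241), and the groups overlapped, with every middle-aged value above the young median.

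In the same comparison, the gene of smallest p in each remaining class was Trp53bp1 for break sensing at -0.35 (p = 0.0295, with -0.01 and -0.02 from its other probes), Msh6 for mismatch repair at -0.15 (p = 0.0562), Rad52 for homologous recombination at -0.17 (p = 0.137), Fanca for the Fanconi pathway at 0.11 (p = 0.211) and Prkdc for end joining at 0.16 (p = 0.416). No group pair was without overlap for any repair gene, and 0.0733% of all genes were. The median over the 34 genes was -0.01. Cell cycle markers had a median of -0.13 and muscle markers one of -1.59, with none called. With arrays weighted by their estimated quality, Parp2 (adjusted p = 0.0258), Ercc2 (adjusted p = 0.0411) and Lig1 were called, among 413 genes in all. The number of the 34 genes at an unadjusted p under 0.05 moved with the setting. It was 2 without the 6 tumours of high muscle marker mean and 4 with that mean as a covariate. Median scaling gave 1, and leaving out the dim arrays gave 8. The share of all genes at that p was not counted in these settings.

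For age in irradiated hosts, 0 of 34 repair genes reached an unadjusted p under 0.05, against 7.31% of all genes. Fancd2 had the smallest p, at -0.28 (SE 0.14, p = 0.0575), and its second probe gave 0.04. It lay between 7.64 and 8.79 in the young irradiated tumours (median 8.24), while the 5 middle-aged irradiated tumours lay between 7.71 and 8.19 (median 7.94), inside that range. Parp2 gave -0.18 (p = 0.0576), Atm -0.19 (p = 0.0802), Lig4 0.37 (p = 0.121), Xpa 0.21 (p = 0.160), Rad54l -0.23 (p = 0.265) and Pms2 -0.19 (p = 0.314).

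Irradiation of young hosts moved no repair gene past an unadjusted p of 0.05, where 5.54% of all genes were past it. Prkdc had the smallest p, at -0.33 (SE 0.18, p = 0.0810), from 6.95 to 7.36 in unirradiated tumours (median 7.28) and from 5.19 to 7.56 in irradiated ones (median 7.11). The lowest irradiated value is that of dim replicate 6. Chek1 gave 0.39 (SE 0.25, p = 0.120), with detection on 7 of 10 unirradiated and 4 of 8 irradiated tumours and one irradiated value as high as 7.99. Fancd2 gave 0.14 (p = 0.250), Lig3 -0.11 (p = 0.254), Brca2 -0.26 (p = 0.268), Msh6 0.07 (p = 0.368) and Xpa 0.08 (p = 0.514). Without the dim arrays, Fancd2 lay at -0.03 and Brca2 at 0.08, on the other side of 0. The histone gene H2ax, whose protein marks breaks, lay between 11.06 and 11.72 in young unirradiated tumours and between 11.00 and 11.71 in young irradiated ones.

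Irradiation of middle-aged hosts gave the more differences at an unadjusted p under 0.05: 5 of 34 repair genes, 4 higher and 1 lower, against 6.33% of all genes. Msh6 lay at 12.04, 11.95, 11.94, 12.05 and 11.96 in the 5 irradiated tumours and between 11.52 and 11.90 in the 7 unirradiated ones (median 11.69), without overlap. The difference was 0.29 (SE 0.09, p = 0.00236, adjusted p = 0.606), and the second probe gave 0.28. Ercc1 lay at 9.04, 8.77, 8.76, 8.97 and 8.95 in irradiated tumours and between 7.78 and 8.73 in unirradiated ones (median 8.52). It differed by 0.52 (SE 0.20, p = 0.0135, adjusted p = 0.671), again without overlap. Lig1 lay at 10.42, 10.72, 10.69, 10.85 and 10.52 against 9.95 to 10.54, overlapping in part, at 0.37 (SE 0.13, p = 0.00762, adjusted p = 0.634). The 3 other detected Lig1 probes gave 0.15, 0.03 and 0.00 and did not bear out that size.

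Rad52 lay at 9.39, 9.14, 9.09, 9.45 and 9.19 in the middle-aged irradiated tumours and between 8.46 and 9.35 in the unirradiated ones (median 8.96), a difference of 0.33 (p = 0.0168). Fanca was the one with the opposite sign, at 9.61, 9.65, 9.59, 9.46 and 9.63 against 9.68 to 9.97 (median 9.80). Its groups did not overlap and the difference was -0.22 (SE 0.11, p = 0.0453, adjusted p = 0.775). Atm gave -0.20 (p = 0.0737) and Prkdc -0.23 (p = 0.323). Thus 3 of 34 repair genes had groups without overlap (Msh6, Ercc1 and Fanca), against 1.1% of all genes tested. The medians were -0.01 for the 34 genes and 0.00 for all genes. With arrays weighted by quality, Msh6 (adjusted p = 0.0260) and Lig1 (adjusted p = 0.0303) were called, among 227 genes. Without the 6 tumours of high muscle marker mean, 2 of 34 had an unadjusted p under 0.05, and with median scaling 0. With the muscle mean as a covariate 6 had one, and with the authors' values 7. The share of all genes was not counted in these settings. The muscle marker mean reached 9.62 in the irradiated and 7.04 in the unirradiated middle-aged tumours. Muscle markers had a median of 1.36 here and cell cycle markers one of -0.03, with none called.

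**Figure D5:**
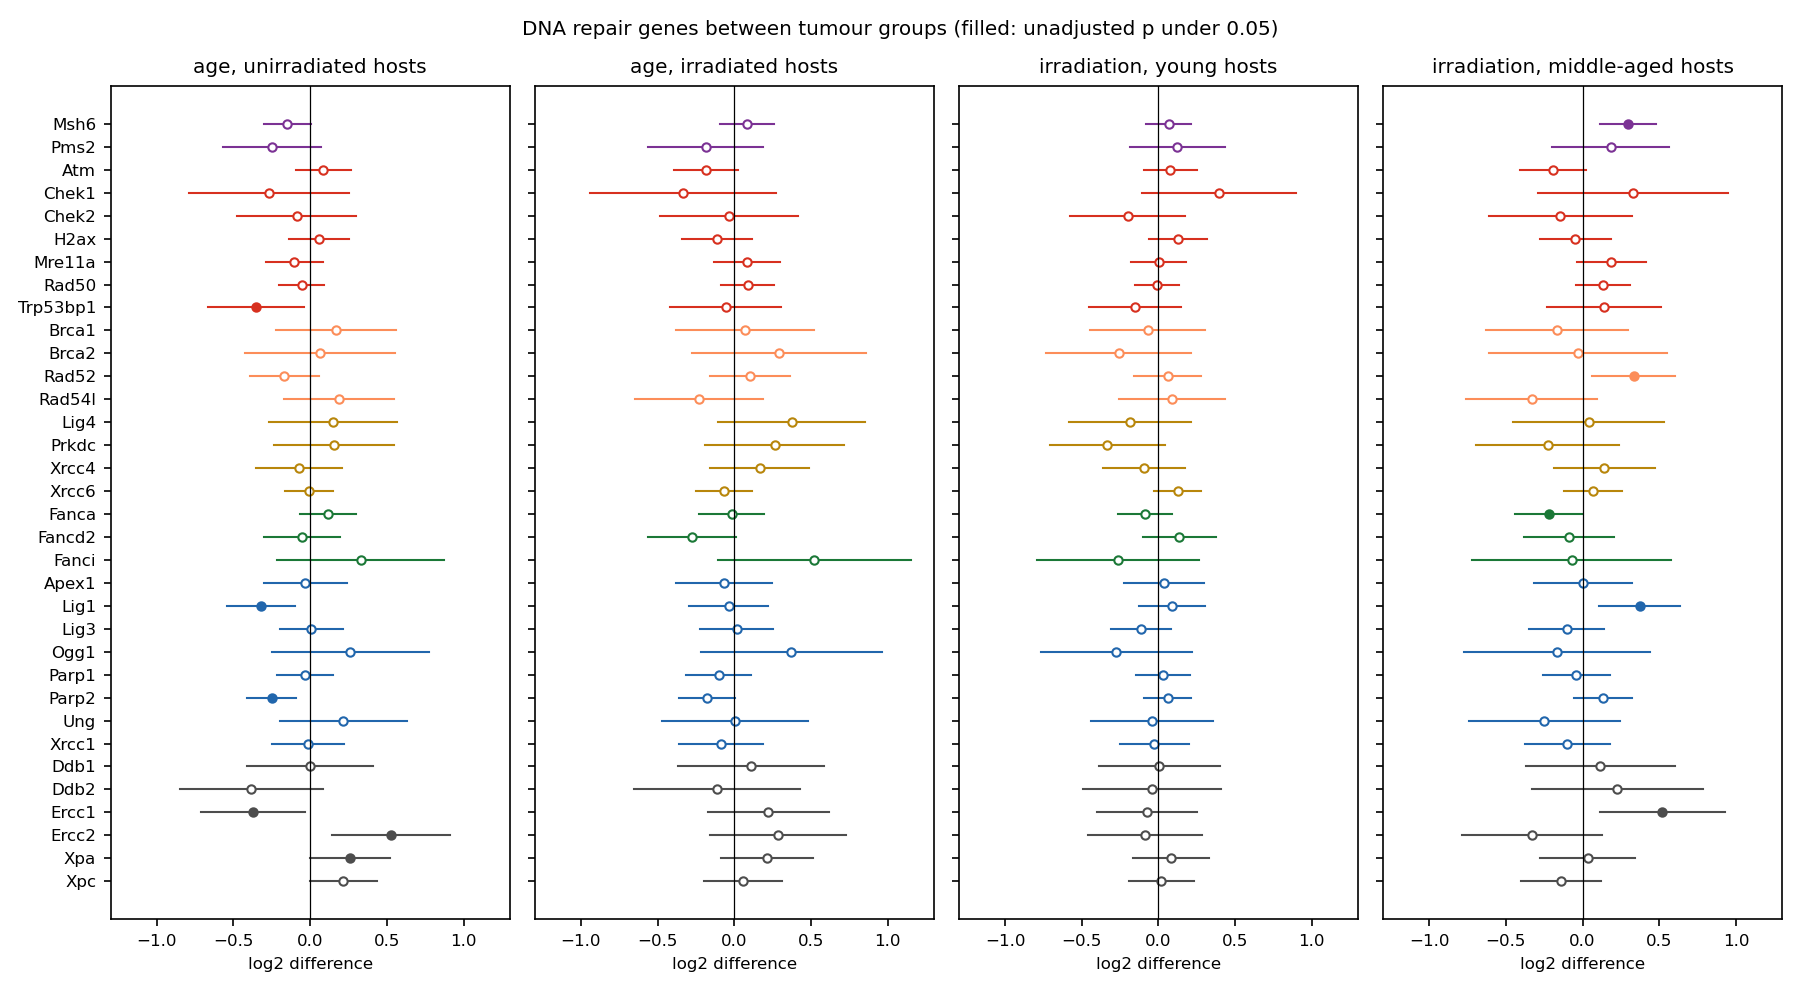
Log2 differences of 34 repair genes are plotted with 95% confidence intervals for 4 comparisons between tumour groups, middle-aged minus young and irradiated minus unirradiated. Filled points have an unadjusted p under 0.05, 6 for age in unirradiated hosts and 5 for irradiation in middle-aged hosts. No gene is filled in the other 2 panels.

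Against the young unirradiated reference, the middle-aged irradiated tumours had 1 of 34 repair genes at an unadjusted p under 0.05 (5.93% of all genes), Xpa at 0.29 (SE 0.14, p = 0.0469). Msh6 gave 0.15 (p = 0.0873), Rad52 0.16 (p = 0.192), Lig4 0.19 (p = 0.409), Parp2 -0.12 (p = 0.184), Trp53bp1 -0.21 (p = 0.226) and Fanca -0.11 (p = 0.287). The test of whether irradiation acted differently at the 2 ages had 1 of 34 at an unadjusted p under 0.05 (4.42% of all genes), Ercc1, with a difference between the effects of 0.59 (SE 0.25, p = 0.0268, adjusted p = 0.981). The same difference was 0.23 for Msh6 (p = 0.0536), -0.27 for Atm (p = 0.0537), 0.28 for Lig1 (p = 0.0983), 0.27 for Rad52 (p = 0.116), -0.22 for Fancd2 (p = 0.237) and 0.24 for Xrcc4 (p = 0.264). An effect of irradiation on any repair gene was therefore not shown to differ with age.

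The 2 batches of LLC cells, 3 arrays each, give the technical background. Of 33 repair genes detected on at least 3 of these 6 arrays, 0 were called between batches, as were 0% of 9241 genes. Ercc2 alone had an unadjusted p under 0.05 (3.08% of all genes), at 6.92, 7.06 and 7.50 in batch 1 and 7.60, 7.85 and 7.84 in batch 2, a difference of 0.60 (SE 0.18, p = 0.00780). This is as large as its difference with age in unirradiated hosts. Other batch differences ran from -0.30 for Chek1 (p = 0.198) and -0.23 for Ogg1 (p = 0.283) through -0.04 for Pms2, 0.08 for Fanci and 0.15 for Brca2 to 0.28 for Lig4 (p = 0.360).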

How the data were processed

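Illumina Mouse WG-6 BeadArrays were used for 30 tumours and for 6 LLC cell samples. Per the file headers, the authors deposited for every probe a mean bead intensity on a linear scale, with its detection p-value, without normalization between arrays. GenomeStudio is named in the submitters' processing notes without a version. A second deposited table of normalized intensity, described in the series text as rank variant normalization, served only as an alternative. Probes took their genes from the platform's annotation, which can be old: 34885 probes had 1 symbol, 18 several and 10378 none.

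Intensities were corrected and quantile-normalised with limma 3.58.1 in R 4.3.3 (neqc, offset 16, background inferred from the detection p-values), and log2 values were fitted with lmFit and eBayes over all genes tested, with Benjamini-Hochberg adjustment. One model over the 4 tumour groups gave the tumour comparisons. Tumours minus cells is the mean of the 4 group means minus the mean of the 6 cell arrays, taken as 1 sample. The number of arrays limits the precision. The test was tried on simulated data. Text names the called genes of tumours minus cells and, in the other comparisons, the gene of smallest p in each class; Lig1 in the age comparison, H2ax with irradiation and further members of each class were added after their values were seen. Genes, lists and tests were chosen with earlier results of these data known.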

Additional observations from a re-analysis of the deposited data

Results flagged for a closer look

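In 10 of 136 sets of values, a gene in a tumour group, 1 tumour lay farther from the rest than Dixon's 95% limit for the group's size, and chance marks about 1 set in 20. Of these, 4 fell on dim replicate 6 of the young irradiated tumours, where the lowest values were 5.64 for Brca2 (next 7.89), 6.18 for Ercc2 (next 7.17), 5.19 for Prkdc (next 6.75) and 5.29 for Chek2 (next 6.63). Replicate 1 of the middle-aged irradiated tumours was highest for Ddb1 at 11.18 (next 10.61) and lowest for Parp2 at 10.4 (next 10.54). Among the middle-aged unirradiated tumours, replicate 1 was highest for Brca1 at 6.88 (next 6.36), replicate 2 was highest for Rad54l at 9.715 (next 9.13), and replicate 3 was lowest for Fancd2 at 7.72 (next 8.02). Replicate 7 of the young unirradiated tumours was highest for Lig3 at 10.39 (next 10.14). The cause was not tested in any of these.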

How the results depend on the processing

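No repair gene was called between tumour groups or between cell batches in the alternatives run, with these exceptions: array quality weights gave 3 calls for age in unirradiated hosts (1 higher, 2 lower) and 2 for irradiation in middle-aged hosts (both higher). The 10 calls between tumours and cells became 17 with array quality weights (2 higher, 15 lower), 25 with the 6 cell arrays as 6 samples (5 higher, 20 lower, 7001 of all genes), 0 with median scaling (386 of all genes, median -0.23) and 1 with the young irradiated tumours alone (809 of all genes, an alternative chosen after seeing the data). With array quality weights 3382 genes were called in all. With each of the 36 arrays left out in turn, 20.1% to 24% of all genes were called. Repair genes had 10 to 12 calls, the 10 genes among them each time. The highest was without replicate 6 of the young irradiated tumours, with Chek1 and Xpc added, and Xpc was also added without replicates 2 and 5 of the young unirradiated tumours and without cell replicate 2 of batch 1. The single tumours outside the middle-aged irradiated group were left out after seeing the data. Counts below have the share called over all genes in brackets. The authors' values gave 10 calls (18.4%), 9 of them shared, without Brca1 and with Xpc. No background correction gave 11 (22.4%). No detection filter gave 10 of 37 genes (10.8%), and detection on at least 50% of arrays 10 of 33 (24.2%). Every probe gave 13 genes with a called probe (19.6% of probes). Batch 1 cells alone gave 11 (21.5%) and batch 2 cells alone 10 (20.9%). For the batches of cells, detection on at least 50% of arrays equals the filter used, so it was not run.

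Replicate numbers recur across groups. Same-numbered tumours had a mean correlation of deviations of 0.04 over 37 pairs (-0.32 to 0.38). Tumours of different number had one of -0.003 over 294 pairs. Cell batches had one of 0.13 over 3 pairs (-0.04 to 0.23). No pairing by number was shown among tumours, and 3 pairs are too few to decide it for the cells. With the replicate number as a block, 0 repair genes were called in each tumour comparison and between the cell batches, and Lig4 in middle-aged irradiated against young unirradiated tumours turned to -0.0519.

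Differences that were not called changed sign in places, mostly under median scaling, which shifts the median of all genes by 0.22 for age in unirradiated hosts, 0.66 for age in irradiated hosts, -0.31 for irradiation in young hosts, 0.33 against the reference and 0.42 for the difference of effects. Under it, age in unirradiated hosts gave Parp2 0.00602, Msh6 0.0469 and Rad52 0.14. Age in irradiated hosts gave Fancd2 0.46, Parp2 0.66, Atm 0.65, Rad54l 0.53 and Pms2 0.55. Irradiation in young hosts gave Fancd2 -0.21, Msh6 -0.39 and Xpa -0.35. Against the reference, Parp2 was 0.28, Trp53bp1 0.18 and Fanca 0.28. The difference of irradiation effects gave Atm 0.31 and Fancd2 0.22, and the cell batches Pms2 0.27. Without the dim arrays, Pms2 with age in irradiated hosts was 0.0157, and with irradiation in young hosts Fancd2 was -0.0283 and Brca2 0.0761. Array quality weights gave Pms2 0.0335 and Fancd2 -0.0171 in the same comparisons. Array brightness as a covariate turned Prkdc with age in unirradiated hosts to -0.0197. Without the 6 tumours of high muscle marker mean, Fanca against the reference was 0.00198. Between cell batches, leaving out 1 array at a time gave -0.0951 to 0.494 for Lig4, -0.0278 to 0.260 for Fanci and -0.113 to 0.0647 for Pms2. The cause was not tested. Depth limits mainly Chek1, Ddb2, Xrcc4 and Brca1, which were near background on part of the tumours.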
